A study of Mus musculus with 6 samples.

Results

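The costimulatory and checkpoint molecules of peritoneal macrophages (PMs) described here are 9 genes, taken by name from the 32879 genes that had a transcript record in the deposited counts. The genes were Cd80, Cd86, Icosl, Cd274, Pdcd1lg2, Vsir, Cd40, Cd83 and Havcr2. RNA was sequenced from cell-sorted PMs (CD11b+ F4/80+) of 3 control mice and 3 diseased-BWF1 mice, with 1 library per mouse. BWF1 mice are F1 offspring of New Zealand black and New Zealand white parents and develop a lupus-like disease, and the diseased animals were taken with high anti-dsDNA titers and severe proteinuria, at 31, 31 and 34 weeks. The non-lupus-susceptible controls, offspring of New Zealand white and BALB/c parents, were 33, 33 and 30 weeks old. All mice were female, and the controls share the MHC (H2) haplotype with BWF1 mice. One parent of the F1 differs between the groups (New Zealand black or BALB/c) beside the disease, which means that strain and disease cannot be told apart.

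T cells respond to an antigen-presenting cell through the antigen receptor and through a second set of contacts. CD80 and CD86 engage CD28 to costimulate and CTLA-4 to inhibit, ICOS ligand (Icosl) engages ICOS, and PD-L1 (Cd274) and PD-L2 (Pdcd1lg2) engage the inhibitory receptor PD-1. CD40 works in the other direction and receives the signal of CD40 ligand on T cells, while VISTA (Vsir) and TIM-3 (Havcr2) restrain immune responses and CD83 protects MHC class II and CD86 from removal from the cell surface. These molecules are of interest in lupus because T cell help sustains autoantibody production by B cells.

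Total counts ranged from 3629901 to 5003360 per mouse, and 89.1% to 93% of them lay on genes. A count of 3, taken as the floor of detection in a library, corresponded to 0.652 to 0.888 CPM (counts scaled to the same library total). Floors of this kind hold for counting error alone, because PCR copies are not separate molecules. Of 11 macrophage markers, all were detected and tested, Adgre1 (F4/80), Itgam (CD11b) and Gata6 among them, with a summed level of 39400 to 52900 CPM in the controls, against 33000 to 38900 CPM in the diseased group, and 0 of the 11 were called different. Most of this sum was Lyz2. The sum of the other 10 markers overlapped between the groups, at 12600 to 13900 CPM in the controls, against 12800 to 13600 CPM in the diseased group (sums without the most abundant marker were added after seeing the data). The overlap holds for the sum alone. Single markers differed in both directions, Timd4 for example being higher in every control mouse than in every diseased mouse. The 8 T cell markers summed to at most 4.34 CPM in any library and the 10 B cell markers found, of 12 listed, to at most 9.35 CPM. Mast cell, eosinophil, neutrophil and mesothelial lists each summed to at most 4.75 CPM, with Kit, Mcpt4, Prg2, Epx, Ly6g, Mpo and Msln at 0 in every library. The monocyte markers Ly6c2, Ccr2, Vcan and Plac8 summed to 3.65 to 12 CPM in the controls, against 12.7 to 14.2 CPM in the diseased group, and Ly6c2 had 1 count in all. The 8 dendritic cell markers summed to 44.8 to 85.1 CPM in the controls, against 9.49 to 18.9 CPM in the diseased group, most of the control level being Cd209a (162 to 244 counts in control and 5 to 18 in diseased mice), with Ccr7 at 0 and Itgax at 2 counts or fewer per library. Without Cd209a the sum of the other 7 overlapped, at 9.57 to 10.9 CPM in the controls, against 8.17 to 14.1 CPM in the diseased group. In bulk libraries, fewer cells that express a gene and less RNA per cell cannot be told apart.

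None of the 9 genes was called different between PMs from diseased-BWF1 and control mice. Calls required a fold change of 1.5 or more together with an adjusted p below 0.05 (edgeR's quasi-likelihood test, Benjamini-Hochberg adjustment over the 10505 genes tested), and 1.22% of all tested genes were called. Of the 9 genes, 6 passed the low-count filter and 3 did not. With edgeR, 1 of the 6 (Icosl) had an unadjusted p under 0.05, against 13.2% of all tested genes, and DESeq2 and limma-voom likewise called 0 members and each gave Icosl alone an unadjusted p under 0.05. Icosl was also the one tested member whose groups did not overlap, where 20.9% of all tested genes had such groups. The count of members with an unadjusted p under 0.05 (edgeR) moved with the mice used. It was 3 of 6 without diseased mouse 3 (Cd80, Cd86 and Icosl), 2 of 6 without control mouse 3, without diseased mouse 1 or with the replicate block (Cd40 and Icosl), and 0 without both mice numbered 1. Of the 6 genes, 5 had a log2 fold change above 0 and their median was 0.27, beside a median of 0.01 and 50.9% of genes above 0 over all genes tested.

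**Figure D1:**
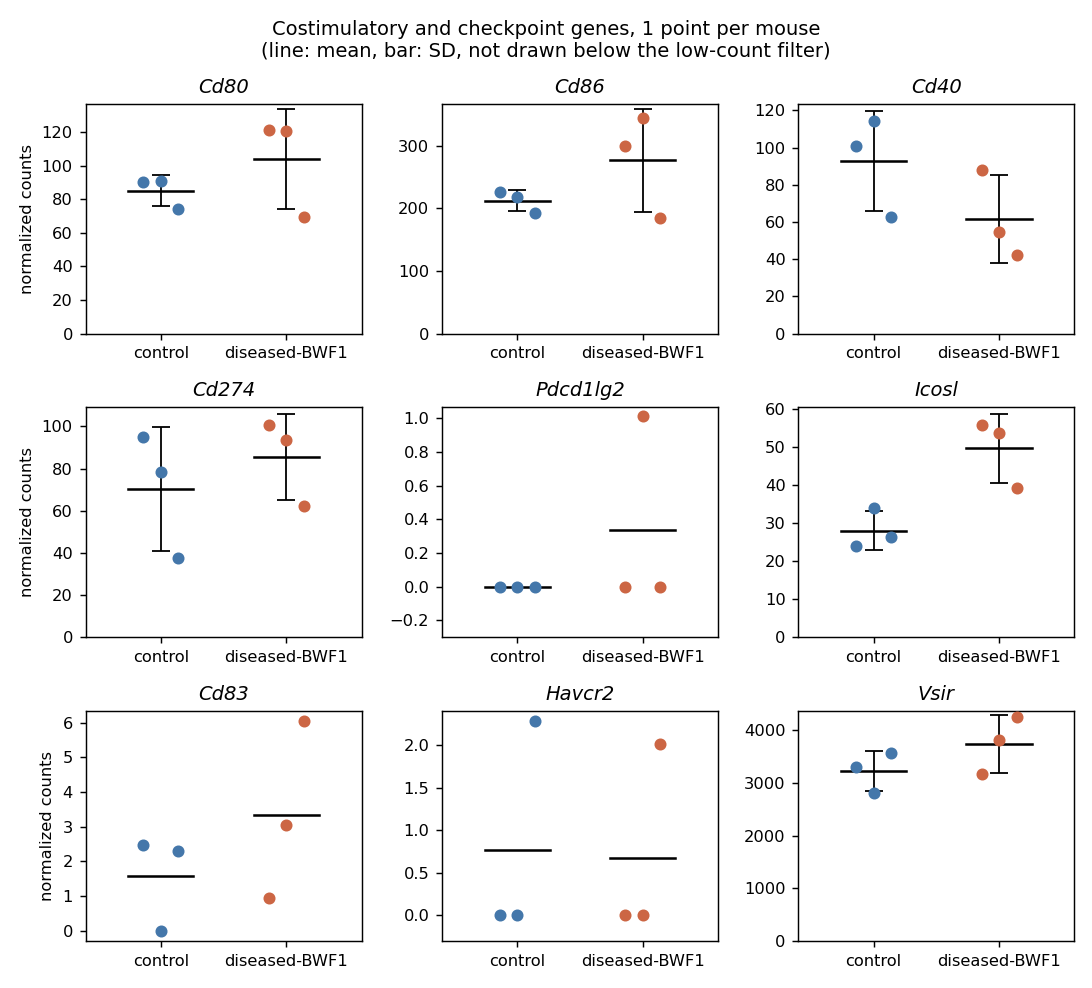
Normalized counts (y axis, linear) of the 9 genes in control and diseased-BWF1 mice (x axis), with 1 point per mouse, a line at the mean and a bar of 1 SD for the 6 genes that passed the filter. The groups of Icosl are apart, at 24.0 to 34.0 and 39.3 to 55.9 normalized counts, while the groups of every other gene overlap.

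The genes differed far more from each other than between the groups, from among the most abundant transcripts of the PMs to none. Levels were compared per length, as CPM per kb of the exons of a gene in GENCODE vM21. Vsir was the highest with a median of 181 CPM per kb over the 6 mice (range 148 to 222), at percentile 98 of the 10184 tested genes with a length. Cd86 followed at 16.0 (13.3 to 24.7), Cd80 at 6.43 (4.91 to 8.64), Cd274 at 6.23 (2.77 to 7.32), Cd40 at 5.87 (3.25 to 8.84) and Icosl at 2.08 (1.37 to 3.19). Vsir and Cd86 were each separated from the next gene in all mice, whereas the ranges of Cd80, Cd274 and Cd40 overlapped, and so did those of Cd274 and Icosl. With the longest transcript of each gene as the length, Cd40 had a median of 6.69 and Cd274 of 6.23 CPM per kb, which exchanges these neighbours and leaves the order of the others. Cd83, Havcr2 and Pdcd1lg2 had medians of 0.245, 0 and 0 CPM per kb.

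**Figure D2:**
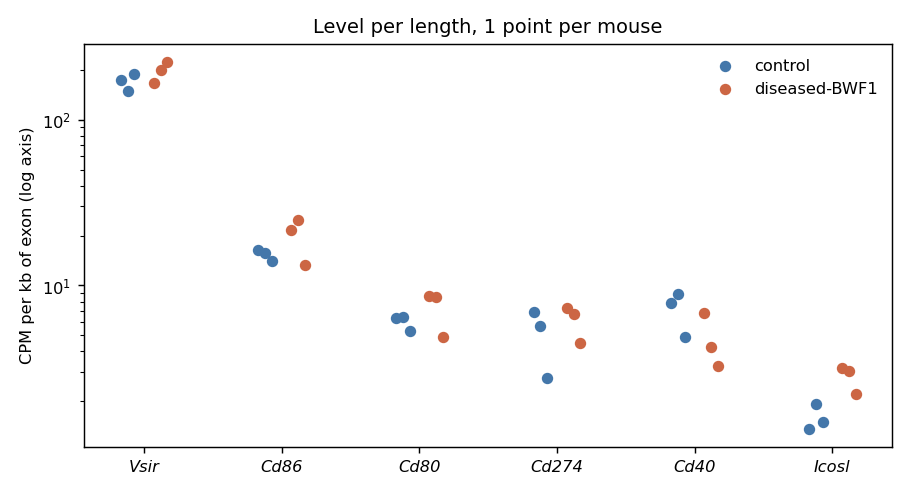
Level per length in CPM per kb of exon (y axis, log scale) of the 6 genes that passed the filter, in order of their median, with 1 point per mouse in control (blue) and diseased-BWF1 (orange) PMs. Vsir lies between 148 and 222 in every mouse and Icosl between 1.37 and 3.19.

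The sequence before the transcription start is shown for the highest gene, for the gene with separated groups and for 2 genes near 0, to show how unequal they were in CG dinucleotides. RefSeq promoters on GRCm38.p6, the C57BL/6J reference, were matched by symbol for 6 of the 9 genes. They do not hold variants of the parental strains used here. The windows hold the 250 bases before the start, 5′ to 3′ on the plus strand, with CG dinucleotides in capitals. They lie at chr10:60346601-60346850 (Vsir), chr10:78069118-78069367 (Icosl), chr19:29410669-29410918 (Pdcd1lg2) and chr11:46454681-46454930 (Havcr2).
Vsir: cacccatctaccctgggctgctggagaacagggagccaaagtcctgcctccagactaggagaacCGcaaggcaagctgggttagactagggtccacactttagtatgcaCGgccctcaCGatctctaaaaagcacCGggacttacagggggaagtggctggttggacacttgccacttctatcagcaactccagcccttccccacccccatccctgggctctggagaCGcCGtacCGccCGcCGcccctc
Icosl: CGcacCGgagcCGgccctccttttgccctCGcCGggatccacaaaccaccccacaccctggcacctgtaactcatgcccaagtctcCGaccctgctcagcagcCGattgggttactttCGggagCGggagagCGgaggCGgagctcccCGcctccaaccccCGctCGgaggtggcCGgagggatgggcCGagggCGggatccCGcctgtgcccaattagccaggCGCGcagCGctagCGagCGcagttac
Pdcd1lg2: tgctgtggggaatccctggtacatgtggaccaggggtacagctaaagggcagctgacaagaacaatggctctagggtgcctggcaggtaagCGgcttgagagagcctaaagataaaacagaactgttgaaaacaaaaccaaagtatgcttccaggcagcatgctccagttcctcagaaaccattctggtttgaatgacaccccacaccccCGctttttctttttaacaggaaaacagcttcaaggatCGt
Havcr2: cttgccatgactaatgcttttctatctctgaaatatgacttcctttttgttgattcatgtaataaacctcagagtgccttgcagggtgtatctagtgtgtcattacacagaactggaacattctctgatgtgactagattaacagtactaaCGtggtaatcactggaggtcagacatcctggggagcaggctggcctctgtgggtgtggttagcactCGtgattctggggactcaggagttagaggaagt

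Icosl had 23 CG dinucleotides in this window and Vsir 9, where the median over 32851 promoters of the same length was 6. Pdcd1lg2 had 3 and Havcr2 2. The level did not follow the CG number throughout, since Cd80 also had 3 and was expressed while Cd274 had 11. The RefSeq start used for Cd80 and Cd274 lies inside the span of the gene given here. Matches to the kappaB consensus, to the ISRE core and to the GAS motif TTCNNNGAA, which are bound by NF-kappaB, IRF and STAT factors, were searched on both strands. They occur in 3.9%, 2.98% and 7.02% of all promoter windows. Among the 6 windows a single match was found, GGGGAATCCC for the kappaB consensus, which begins 244 bases before the start of Pdcd1lg2. A match describes the letters only, and no match says nothing on the binding of a factor.

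Icosl, the ligand of ICOS, lies on chromosome 10 from 78069368 to 78079525 (GRCm38.p6) and its counts came from 1 curated record. It had 24.0, 34.0 and 26.3 normalized counts in the controls, against 55.9, 53.8 and 39.3 in diseased-BWF1 mice, from 23 to 59 raw counts. All values of the diseased group exceeded all control values, with means of 28.1 ± 5.24 and 49.7 ± 9.06 (SD, n = 3; two-sided exact permutation, p = 0.1, which is the lowest value possible with 3 and 3 mice). For Icosl the log2 fold change came to 0.82 (standard error, SE, 0.25, 95% interval 0.24 to 1.39), and the model fitted across all genes (edgeR) gave an unadjusted p = 0.012 and an adjusted p = 0.208, so the difference did not pass. Higher groups without overlap were found for 9.81% of all tested genes. Over the fits with 1 mouse removed, its log2 fold change ran from 0.70 to 0.98, and without both mice numbered 1 it was 0.61 with an unadjusted p of 0.126 (edgeR).

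Icosl is also made by B cells. The 10 B cell markers summed to 7.06 to 9.35 CPM in the controls, against 3.95 to 6.25 CPM in the diseased group, with at most 13 counts of a marker in any library. The part of B cells in the Icosl counts was not tested. The 4 monocyte markers named above were higher in every diseased mouse, as Icosl was, and their part in the difference was not tested. The receptor Icos was itself present in the PM libraries, with 25 to 61 counts per library, and overlapped between the groups (log2 fold change 0.01, SE 0.39). The T cell markers Cd3e, Cd3g, Cd4, Cd5 and Lck had at most 2 counts each in any library, and Cd2 and Cd8a at most 6 and 4. Cd3d had 3, 6 and 0 counts in the controls, against 10, 2 and 4 in diseased-BWF1 mice, and was highest in control mouse 2 and diseased mouse 1, where Icos was also highest. The sum of the other 7 T cell markers was lower in every diseased mouse. It was 2.13 to 3.26 CPM in the controls, against 0.791 to 1 CPM in the diseased group. The part of T cells in the Icos counts was not tested.

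The genes whose pattern over the 6 libraries was nearest to that of Icosl, by the root mean square difference of log2 CPM z-scores among 10504 genes, were Zscan20 (0.172), Hmgxb3 (0.18) and Casc3 (0.187). Hmgxb3 had 88.5, 113 and 103 normalized counts in control mice and 154, 146 and 117 in diseased-BWF1 mice. None of these 3 genes was called (adjusted p from 0.327 to 0.478, edgeR's quasi-likelihood test).

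The CD28 and CTLA-4 ligands Cd80 and Cd86 both lie on chromosome 16, from 38457430 to 38495958 and from 36568956 to 36666158. Cd86 had 226.7, 217 and 193 normalized counts in the controls, against 299.6, 344 and 185 in diseased-BWF1 mice. Diseased mice 1 and 2 were above all controls, and diseased mouse 3 was below them. Its log2 fold change was 0.37 (SE 0.23, 95% interval -0.16 to 0.90, edgeR adjusted p = 0.542).

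Cd80 had 90.2, 90.7 and 74.3 normalized counts in the controls, against 121, 121 and 69.5 in diseased-BWF1 mice. The same diseased mouse 3 was again the lowest of the 6. The log2 fold change was 0.28 (SE 0.24, 95% interval -0.28 to 0.85, edgeR adjusted p = 0.681). Without diseased mouse 3 the log2 fold change was 0.50 for Cd80 and 0.59 for Cd86, with adjusted p of 0.342 and 0.198 (edgeR). It was 0.15 for Cd80 without diseased mouse 1 and 0.19 for Cd86 without diseased mouse 2, and neither gene was called in any of these fits.

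Per length, Cd86 was 2.54, 2.43 and 2.63 times Cd80 in the controls, against 2.50, 2.88 and 2.70 times in diseased-BWF1 mice, with overlapping groups (exact two-sided permutation test, p = 0.3, adjusted p = 0.45 over 6 ratios). Most Cd80 counts lay on a predicted record, XM_006521737.3, on average 79.5% in control and 80.9% in diseased-BWF1 mice, and curated records alone gave a log2 fold change of 0.32 with a standard error of 0.61. Cd86 counts lay almost wholly on the curated record NM_019388.3, on average 95.7% and 98.5%.

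Cd274, which encodes PD-L1, lies on chromosome 19 from 29362107 to 29388095. It had 95.2, 78.3 and 37.7 normalized counts in the controls, against 101, 93.4 and 62.5 in diseased-BWF1 mice. The direction of the difference rested on the low value of control mouse 3. The log2 fold change was 0.26 (SE 0.34, 95% interval -0.54 to 1.07, edgeR adjusted p = 0.794), and it was -0.024 without control mouse 3. Of its exon bases, 511 (14.1%) overlap AC119228.1 on the other strand. The libraries were prepared with a stranded mRNA kit, but whether the counting used strand is not given in the sources used here.

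Pdcd1lg2, the gene of PD-L2, starts next to Cd274 on chromosome 19, from 29410919 to 29472927. It had 1 count in the 6 libraries together, in diseased mouse 2, so PD-L1 was the only PD-1 ligand with a measurable transcript at this depth. No difference between the groups was detectable for Pdcd1lg2.

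Vsir, which encodes the inhibitory B7-like molecule VISTA, lies on chromosome 10 from 60346851 to 60430294, inside Cdh23 on the other strand but without shared exon bases. It had 3293, 2811 and 3570 normalized counts in the controls, against 3164, 3813 and 4255 in diseased-BWF1 mice. The groups overlapped, and the log2 fold change was 0.21 (SE 0.17, 95% interval -0.19 to 0.60, edgeR adjusted p = 0.658). This was the narrowest interval among the 6 genes, with 2728 to 4223 raw counts per library. Diseased mouse 3, the lowest of its group for Cd80, Cd86, Cd274, Cd40 and Icosl, was the highest for Vsir. Its 2 curated records held steady shares, with NM_028732.4 at 77.4% to 83.6% of the counts in every mouse.

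**Figure D3:**
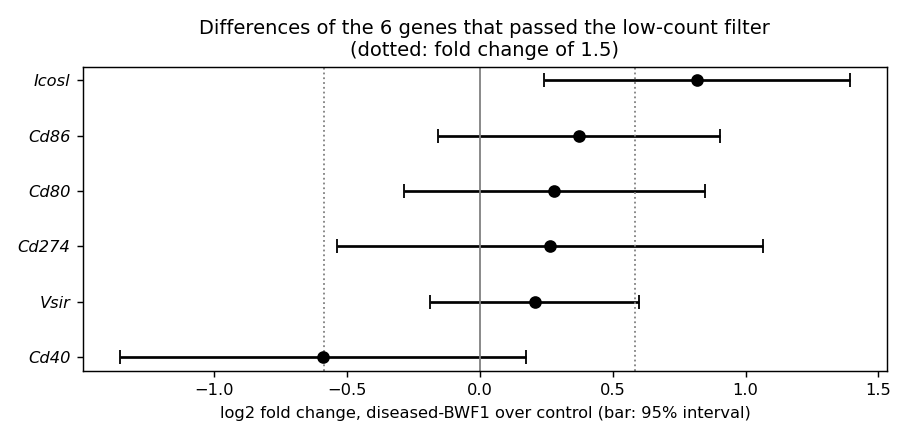
Log2 fold change of diseased-BWF1 over control PMs (x axis) for the 6 genes that passed the filter (y axis), as points with 95% intervals from edgeR, and dotted lines at a fold change of 1.5. The interval of Icosl runs from 0.24 to 1.39 and lies above 0, while those of the other 5 genes include 0.

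Cd40, a receptor of the TNF receptor family, lies on chromosome 2 from 165055614 to 165071654 and was the one tested member with a negative log2 fold change. It had 101, 114 and 62.9 normalized counts in the controls, against 88.2, 54.8 and 42.3 in diseased-BWF1 mice. Control mouse 3 fell within the range of the diseased mice, so the groups overlapped (exact two-sided permutation test, p = 0.2). The log2 fold change was -0.59 (SE 0.33, 95% interval -1.36 to 0.17, edgeR adjusted p = 0.503). Cd40 is also expressed by B cells and dendritic cells. The sum of the B cell list was lower in every diseased mouse, and so was Cd209a, while the sum of the other dendritic cell markers overlapped between the groups. Zbtb46 had 36, 30 and 19 counts in the controls, against 47, 43 and 22 in diseased-BWF1 mice. The part of these markers in the Cd40 values was not tested.

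Relative to Cd86 in the same library, Cd40 was lower in every diseased-BWF1 mouse than in every control mouse. Per length, the ratio of Cd40 to Cd86 was 0.479, 0.565 and 0.35 in the controls, against 0.316, 0.171 and 0.245 in diseased-BWF1 mice, with means of 0.465 ± 0.108 and 0.244 ± 0.0726 (SD, n = 3; exact two-sided permutation test, p = 0.1, adjusted p = 0.3 over 6 ratios). The ratio of Icosl to Cd80 was also separated, at 0.213 to 0.301 in control and 0.357 to 0.453 in diseased mice, with the same p. The ratio of Icosl to Cd86 overlapped, at 0.0839 to 0.124 in control and 0.124 to 0.168 in diseased mice (exact two-sided permutation test, p = 0.2). The ratios were chosen after the counts were seen, and none passed.

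The counts of Cd40 were divided over 7 of its 9 records in the files. The curated record NM_011611.2 held 65.6%, 6.31% and 40.0% of them in the controls, against 71.0%, 81.5% and 61.9% in diseased-BWF1 mice. Control mouse 2 had 29.7% on NM_170704.2 and 18.0% on XM_017317123.1, records at 0 in every diseased mouse. NM_170704.2 also held 14.5% in control mouse 3, and XM_017317123.1 held 4.1% in control mouse 1. The groups overlapped for NM_011611.2 (exact two-sided permutation test, p = 0.2). With 42 to 122 counts of the gene per library, the division of reads between such similar records is uncertain. With curated records alone, the log2 fold change of Cd40 was -0.34 (SE 0.37).

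**Figure D4:**
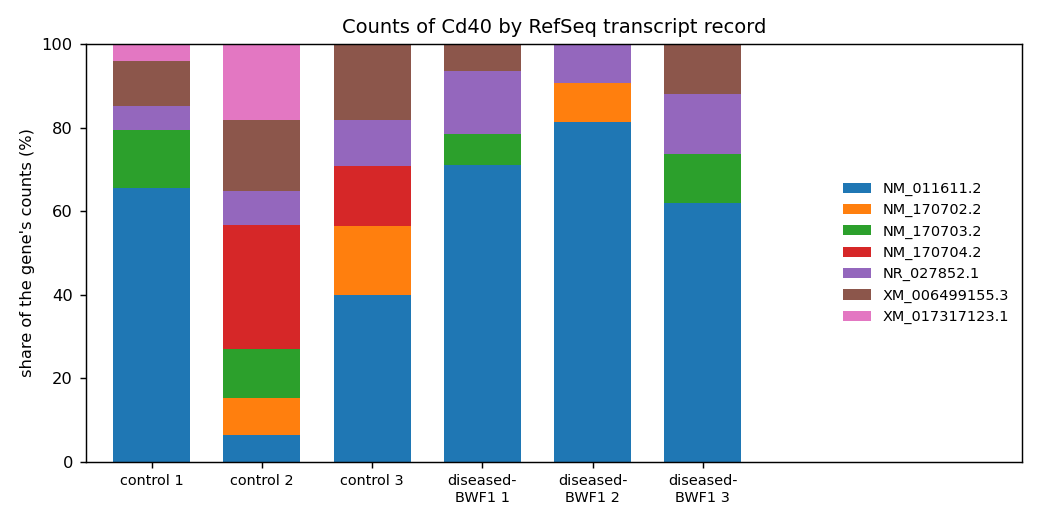
Share of the Cd40 counts on each RefSeq record with counts (y axis, percent, stacked to 100) in each of the 6 mice (x axis). NM_011611.2 is the largest part in every mouse except control mouse 2, where it holds 6.31%.

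Cd83 and Havcr2 were too low for a comparison. Cd83, on chromosome 13 from 43785112 to 43803133, had 3, 0 and 2 counts in the controls, against 1, 3 and 6 in diseased-BWF1 mice, all on the curated record NM_001289915.1, and the fit without the filter gave a log2 fold change of 0.96 with a 95% interval from -1.16 to 3.07 (adjusted p = 0.705, edgeR's quasi-likelihood test). Havcr2, on chromosome 11 from 46454931 to 46481255, had 2 counts in control mouse 3, 2 in diseased mouse 3 and 0 in the other mice. Differences in these genes were not detectable at this depth.

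The receptors of these ligands on T cells were mostly at or near 0. Of 10 counter-receptors, Icos alone passed the filter. Cd40lg and Cd96 had 0 counts in all libraries, Pdcd1 had 1 count and Ctla4 had 2. Cd28 had 5, 13 and 3 counts in the controls, against 2, 0 and 2 in diseased-BWF1 mice, with groups that did not overlap and an adjusted p of 0.375 without the filter (edgeR's quasi-likelihood test).

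Other B7 and butyrophilin genes were few, with 3 of the 11 found in the files passing the filter and 0 called. Vsig4, a complement receptor of resident macrophages that inhibits T cells, was the abundant one, at 3516 ± 640 normalized counts (SD, n = 3) in the controls, against 2355 ± 910 in the diseased group (log2 fold change -0.59, SE 0.28, edgeR adjusted p = 0.441). Pvr and Nectin2, ligands of CD226 and TIGIT, had log2 fold changes of 0.08 and 0.36. Vtcn1, Btn1a1, Btn2a2, Igsf11 and Cd200 had 0 counts.

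Among 12 genes of the TNF-family costimulatory list, 4 passed the filter and 0 were called. Tnfrsf14 (HVEM), the receptor of LIGHT and BTLA, had 163.5 ± 61.5 normalized counts (SD, n = 3) in the controls, against 255 ± 24.5 in the diseased group, and its groups did not overlap (log2 fold change 0.63, SE 0.26, edgeR adjusted p = 0.366). Its ligand Tnfsf14 (LIGHT) had 18, 10 and 22 counts in the controls, against 5, 6 and 8 in diseased-BWF1 mice, and Tnfsf9 (4-1BB ligand) had 4, 2 and 4 against 7, 7 and 8. Without the filter neither passed, with adjusted p of 0.307 and 0.636 (edgeR). Tnfrsf1a and Tnfrsf11a (RANK) had log2 fold changes of -0.06 and 0.15. The OX40 ligand Tnfsf4, Cd70 and Tnfsf18 had 0 counts.

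Of the TIM family, Timd4, which binds phosphatidylserine on apoptotic cells, was the abundant member. It had 4686 ± 135 normalized counts (SD, n = 3) in the controls, against 3258 ± 823 in the diseased group, and every control mouse lay above every diseased mouse (log2 fold change -0.53, SE 0.21, edgeR adjusted p = 0.334). The TIM-3 ligands Lgals9 (galectin-9) and Ceacam1 were both present, with log2 fold changes of -0.27 and 0.23, and their receptor Havcr2 was near 0. Of the 7 genes of the list 5 were tested and 0 called.

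In the list of CD40 signalling, 18 of 19 genes were tested and 0 were called. Of the 18, 14 had a log2 fold change above 0, and the median was 0.24 beside 0.01 over all tested genes. For 5 genes (27.8%) the diseased-BWF1 values were all above the control values, where 9.81% of all tested genes had such groups, and for 0 genes the reverse held. They were Traf2, Traf3, Traf5, Nfkb1 and Birc2, named after their values were seen. Traf3, an adaptor that restrains noncanonical NF-kappaB signalling, had 124 ± 32.9 normalized counts (SD, n = 3) in the controls, against 208 ± 33.7 in the diseased group (log2 fold change 0.74, SE 0.22, edgeR adjusted p = 0.211). Traf2 had a log2 fold change of 0.51, and Tnfaip3, which encodes the NF-kappaB inhibitor A20, one of 0.79 with overlapping groups (adjusted p of 0.351 and 0.414, edgeR).

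Of the 11 genes listed for the axis from interferon-gamma to PD-L1, regulators such as Socs1 and Ciita included, 9 were tested and 0 called, with a median log2 fold change of -0.06. Ifngr1, a chain of the interferon-gamma receptor, had 610 ± 44.9 normalized counts (SD, n = 3) in the controls, against 789 ± 142 in the diseased group without overlap (log2 fold change 0.36, SE 0.16, edgeR adjusted p = 0.387). Irf1 and Irf8 had log2 fold changes of -0.19 and -0.45.

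The list of proteins that set the turnover of CD86 and PD-L1 had 8 tested genes of 9, 0 called and a median log2 fold change of 0.02. Marchf8, a ubiquitin ligase that removes CD86 from the surface, had a log2 fold change of -0.22 (SE 0.12), and Cmtm6, which stabilises PD-L1, one of 0.16 (SE 0.16). Gsk3b had a log2 fold change of 0.22.

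The MHC class II genes that present antigen beside these ligands set the mice numbered 1 of both groups apart from the others. H2-Aa had 681, 75 and 48 counts in the controls, against 550, 116 and 70 in diseased-BWF1 mice. Cd74, the invariant chain, had 2340, 212 and 172 counts in the controls, against 1717, 259 and 195 in diseased-BWF1 mice. Of 6 MHC class II genes 0 were called, and the groups overlapped for each (H2-Eb1, H2-DMb1 and H2-DMa had log2 fold changes of 0.40, 0.48 and 0.20). In the same 2 mice Cd274 was at the top of its group, whereas Cd86 and Cd40 were at the top in 1 of the 2. Without these 2 mice the log2 fold changes of the members were 0.41 for Cd274, -0.88 for Cd40, 0.19 for Cd80, 0.35 for Cd86 and 0.32 for Vsir, with 0 members called and 0 with an unadjusted p under 0.05 (edgeR).

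**Figure D5:**
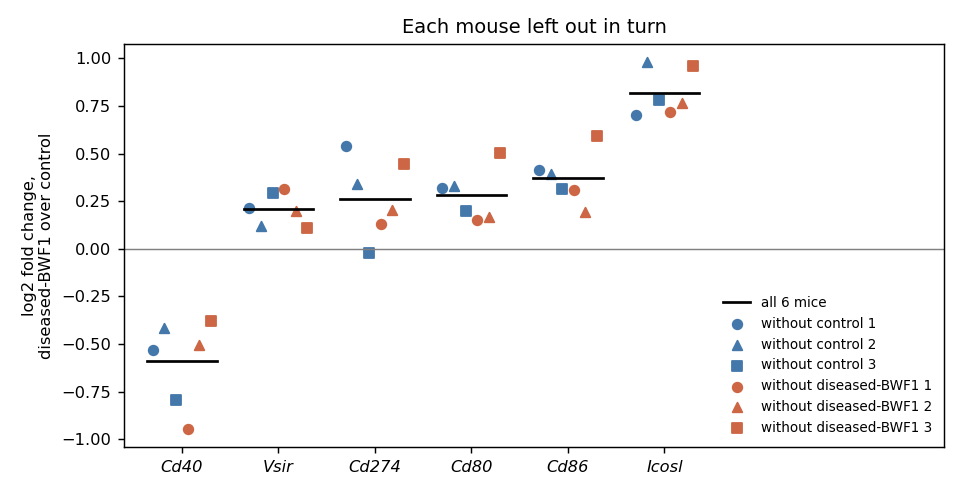
Log2 fold change of diseased-BWF1 over control PMs (y axis) for the 6 genes that passed the filter (x axis), with a line for all 6 mice and a point for each fit that leaves out 1 mouse. Icosl stays between 0.70 and 0.98 and Cd40 between -0.94 and -0.38, while Cd274 reaches -0.024 without control mouse 3.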

How the data were processed

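RNA-seq of cell-sorted PMs from 3 control and 3 diseased-BWF1 mice was used. The authors deposited whole-number read counts per RefSeq transcript record (107193 records), without normalization, for each mouse. The submitters' processing notes list Salmon 0.8.0, DESeq2 and GRCm38.p6. Salmon divides reads between similar transcripts, so shares between records are estimates, and its values may have been rounded.

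Records were matched to a RefSeq gene table of GRCm38.p6 (86466 of 107193, 40712 of them in another version) and summed per gene symbol. The 20727 unmatched records were not used and may include retired records of the genes described. The 9 genes had 24 records. edgeR 4.0.16 (filterByExpr, TMM, glmQLFit, glmQLFTest; R 4.3.3) was fitted on all genes, with Benjamini-Hochberg adjustment over 10505 genes. Normalized counts used DESeq2 1.42.0 size factors (0.875 to 1.21). limma 3.58.1, other normalizations, filters, covariates and record sets were alternatives. The fits were tested on simulated data, where DESeq2 made a larger share of false calls than edgeR, and both missed part of the changed genes. The simulated spread was taken from edgeR's own estimates, so this does not show which calls in the real data are false. No pair of libraries was a duplicate (chi-square per gene 9.57 or more, far above sampling noise). The members, lists and tests were chosen with earlier results of these data known. From each list the called genes or, with none called, the 3 genes with the smallest p were named, along with the nearest patterns of the member with the smallest p. Genes at 0, below the filter or without overlap were added after their values were seen. Same-numbered mice are different animals. The tests took the mouse as the unit, so p-values set the difference between the groups against the variation between mice. A few genes, among them 1 of the monocyte marker list, are not reported here.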

Additional observations from a re-analysis of the deposited data

How the results depend on the processing

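No member was called under any of the alternatives run, and of 102 recomputed log2 fold changes of the 6 tested members 101 kept their direction and stayed above the adjusted p threshold. The exception was Cd274, at -0.024 without control mouse 3 (range 0.54 to -0.024 with 1 mouse left out). Adjusted p over all alternatives ran from 0.192 to 0.691 for Icosl, from 0.343 to 0.82 for Cd40, from 0.198 to 0.819 for Cd86, from 0.342 to 0.917 for Cd80, from 0.555 to 0.977 for Cd274 and from 0.491 to 0.884 for Vsir (edgeR, DESeq2 or limma-voom). Cd83, Havcr2 and Pdcd1lg2 enter no fit with a filter. Genes called over the whole table, 128 with all mice, numbered 372 with DESeq2, which made more false calls than edgeR on simulated data, 259 without the low-count filter (19833 genes tested), 84 with at least 10 counts in every library, 16 with curated mRNA records alone, 21 to 51 with 1 mouse left out, and 6 without both mice numbered 1, a choice made after seeing the data. Some of these fits held fewer genes or fewer mice, and the cause of the changed numbers was not tested. With the replicate number as a block, 38 genes and 0 members were called, and Icosl had a log2 fold change of 0.82 and Cd40 of -0.61 (adjusted p = 0.262 and 0.357, edgeR). Same-numbered mice share a number in the labels, and whether they also shared a batch is not given there. Their deviations from the group means correlated at 0.117, 0.006 and 0.157 over genes, where differently numbered mice ran from -0.144 to 0.057. The mice numbered 1 and those numbered 3 thus correlated best with each other, and the mice numbered 2 did not.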
